A study of Mus musculus with 21 samples.

Results

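Igf1, Igfbp4, Pdgfra, Serpinf1, Mmp2, Timp2 and Timp3 encode secreted growth factors, a growth factor receptor and regulators of matrix proteolysis that are made mainly by connective tissue and other somatic cells. They were taken as the probes whose single gene symbol in the platform annotation was one of these 7 names, which gave 8 of the 16128 probes on the array and 7 of the 7117 genes that its probes name. Timp3 had 2 probes, and each of the other 6 genes rested on 1 probe. All 8 probes had enough values to be tested, among 7561 probes and 4465 genes tested in all.

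Mouse total RNA from 2 sources was compared in the 2 channels of each of 21 arrays. The labels describe 4 arrays of wild type whole ovary with wild type whole testis, 4 of 15 day with adult wild type whole testis, and 4 of Spo11 knockout with wild type whole testis. A further 4 arrays set wild type whole testis, and 5 wild type whole ovary, against Universal mouse reference RNA from Stratagene, a commercial pool prepared from mouse cell lines. Strain, the knockout allele, ages other than 15 days and the number of animals were not given in the sources used here. The p-values thus reflect only how far these arrays scatter, and that scatter may be technical. Values are log2 ratios relative to the median of each array, so a value of 1 is a doubling, and errors are standard errors (SE) of the fit unless SD is stated. A ratio says nothing about the absolute level of a gene, and in whole organs fewer cells of a type and less RNA per cell cannot be told apart.

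The labels did not state which source was the numerator, and the source named first in each comparison was taken as the likely one. On that reading, the flagellar gene Tekt2 was at -4.68 ± 0.33 in ovary against testis, at -4.68 ± 0.33 in 15 day testis and at -5.73 ± 0.33 in the knockout, and the oocyte growth factor Gdf9 was at 1 ± 0.35 in ovary against testis. Oaz3, another spermatid gene, went against it, at 0.79 ± 0.27 in ovary. So did Amhr2, the only tested granulosa marker, at -1.1 ± 0.28. The other tested oocyte genes, Padi6 and Zp2, were at 1.76 ± 0.26 and 0.3 ± 0.23 in ovary against testis. Gdf9 was also at 0.9 ± 0.35 in the knockout testis. Arrays of opposite channel order within a comparison correlated positively over probes (r from 0.547 to 0.958), so the values as deposited run one way within each comparison. Turning the sign would turn every direction below. The array titles carry numbers that fall into 5 separate runs, called run 1 to run 5 here, and what the runs stand for is not given in the labels.

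The insulin-like growth factor Igf1 acts through the receptor Igf1r, and binding proteins such as Igfbp4 hold it away from that receptor. Pdgfra is the receptor through which platelet-derived growth factors drive mesenchymal cells, including precursors of Leydig and peritubular cells in the testis and of theca cells in the ovary. Mmp2 is a gelatinase that degrades basement membrane collagen. Timp2 and Timp3 inhibit metalloproteases, and Timp2 also takes part in the activation of the Mmp2 precursor at the cell surface. Serpinf1 encodes pigment epithelium-derived factor, a secreted serpin without protease inhibitor activity that restrains vessel growth.

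A gene was called at an adjusted p under 0.05 (limma, Benjamini-Hochberg over the 4465 genes of a comparison). In ovary against testis 4 of the 7 genes were higher and 1 was lower, where 22.4% of all genes were called higher and 36.5% lower. At 15 days 3 were higher and 2 lower than in adult testis, against 18% and 28.1% of all genes. In the Spo11 knockout all 7 passed, 5 higher and 2 lower, against 26.7% and 30.5%. Testis stood above the reference for 1 gene and below it for 4, against 35.5% and 25.9% of all genes. Ovary stood above the reference for 1 and below it for 2, against 9.54% and 13.4%. The medians of the 7 genes were 1.18, 0.65, 1.04, -1.31 and -0.34 in these comparisons, in that order, and those of all genes were -0.18, -0.07, -0.03, 0.12 and -0.06. The arrays of the 5 comparisons were separate, but adult or wild type testis recurs as a source in 4 of them and the reference in 2, so the comparisons are not independent of each other.

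**Figure D1:**
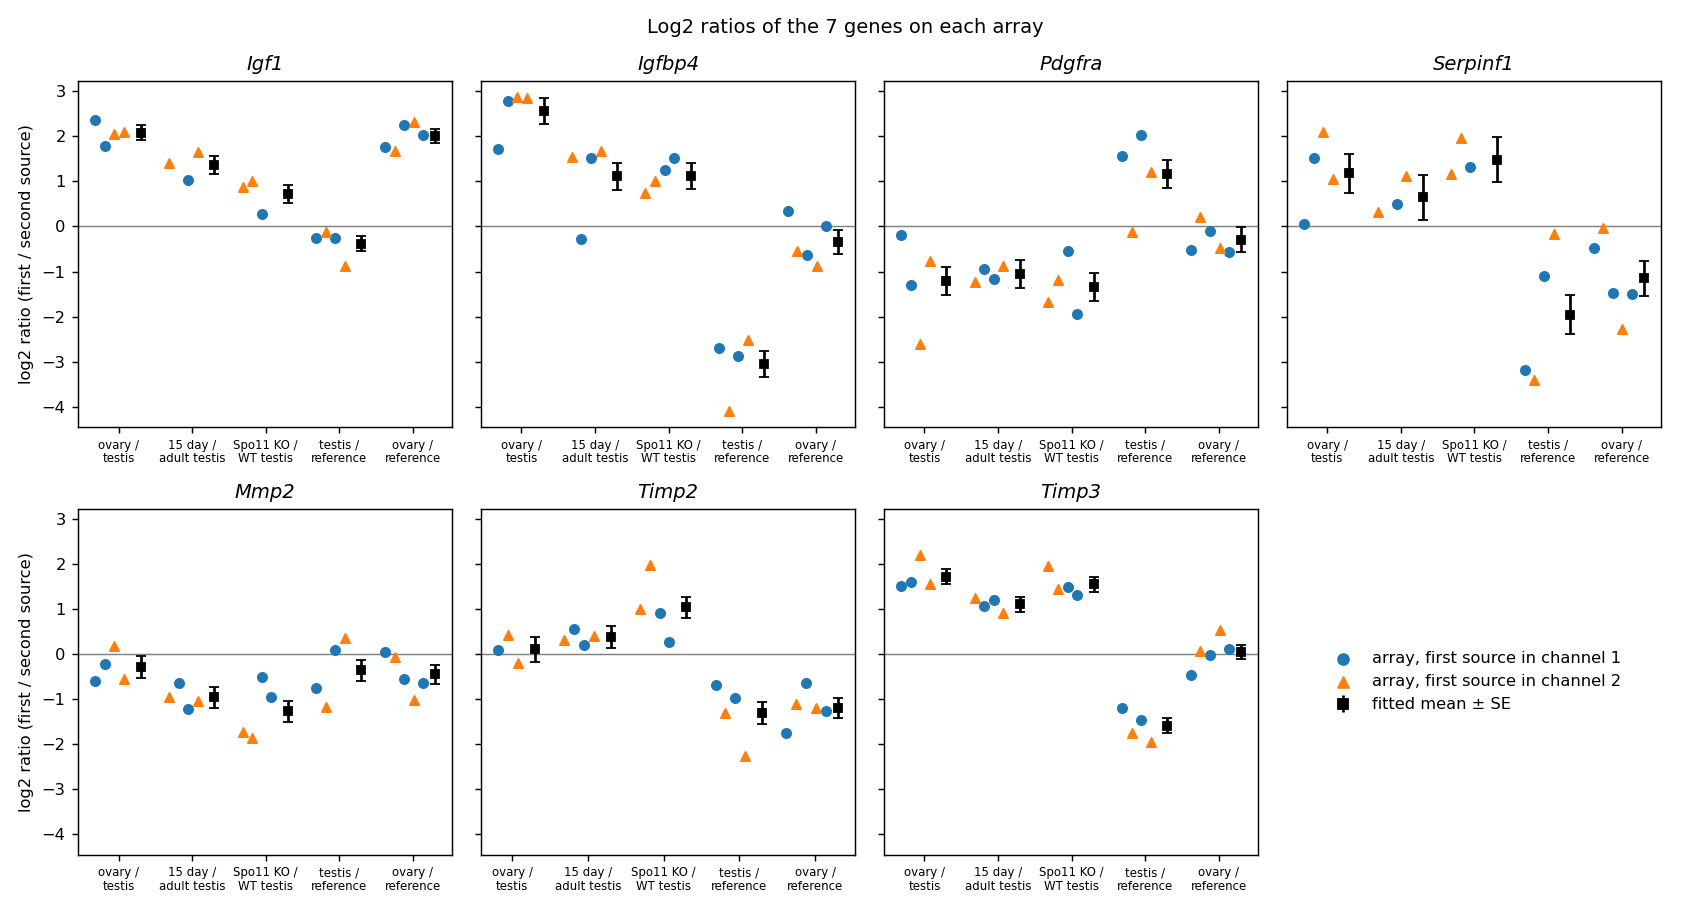
Log2 ratio of each of the 7 genes on each array (y axis) in the 5 comparisons (x axis, first source over second). Circles and triangles are arrays with the first source in channel 1 and channel 2, and squares with bars are fitted means ± SE. Timp3 lies above 0 on every ovary against testis, 15 day and knockout array, as do Igf1 and Serpinf1 where they have a value. Pdgfra and Mmp2 lie below 0 on every 15 day and knockout array.

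Igf1 separated the ovary from both other sources. The 4 ovary against testis arrays read 2.36, 1.79, 2.06 and 2.10, and the 5 ovary against reference arrays ran from 1.68 to 2.31 with a median of 2.02. Igf1 was thus 4.22-fold higher in ovary than in testis (2.08 ± 0.17, limma adjusted p = 7.52e-09) and 4.02-fold higher than in the reference (2.01 ± 0.16, limma adjusted p = 1.52e-08; 3.45 with all arrays scaled to 1 spread). The difference between testis and reference was small for this gene, with arrays at -0.26, -0.12, -0.26 and -0.87. All were below 0, yet the fitted -0.38 ± 0.17 (95% interval -0.74 to -0.01) did not pass after adjustment (limma adjusted p = 0.067), although it did with arrays weighted by quality (-0.51, limma adjusted p = 0.0215). Ovary therefore stood highest, and testis and reference did not differ beyond the adjusted threshold.

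Within the testis, Igf1 was higher at 15 days on each of the 3 arrays with a value, at 1.42, 1.03 and 1.65. That made a ratio of 1.37 ± 0.20, or 2.58-fold (limma adjusted p = 1.74e-05). Within the separate runs of title numbers the ratio was 1.42 in run 2 (1 array) and 1.34 in run 5 (2 arrays). In the knockout the 3 arrays with a value read 0.88, 1.02 and 0.28, which gave 0.73 ± 0.20 (limma adjusted p = 0.00439). Without replicate 2 the knockout value was 0.58 and no longer passed (limma adjusted p = 0.0547), nor did 0.73 in a fit on the knockout arrays alone (limma adjusted p = 0.0512). The knockout ratio lay 0.64 ± 0.28 below the 15 day ratio, a difference that did not pass (limma adjusted p = 0.298).

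Igfbp4 showed the largest gap between the gonads among the 7 genes in ovary against testis. The direct arrays gave 1.73, 2.79, 2.88 and 2.85, with replicate 1 below the other 3. The mean of 2.56 ± 0.29 was a 5.91-fold excess in ovary (limma adjusted p = 2.21e-07). Against the reference, testis was at -2.69, -4.10, -2.88 and -2.53, an 8.28-fold deficit (-3.05 ± 0.29, limma adjusted p = 1.51e-08). Ovary straddled the reference, at 0.34, -0.54, -0.63, -0.88 and 0.02. Its mean of -0.34 ± 0.26 did not pass (95% interval -0.88 to 0.21, limma adjusted p = 0.39). Relative to the reference, this binding protein was thus called low in testis, whereas Igf1 was called high in ovary.

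Igfbp4 was called higher in both immature and knockout testis. The 15 day arrays read 1.54, -0.27, 1.52 and 1.67, so that replicate 2 stood apart from the other 3 and on the other side of 0. The fitted ratio was 1.11 ± 0.29 (limma adjusted p = 0.00378), or 1.58 without replicate 2. Run 2, which holds that array, gave 0.64 and did not pass by itself (limma adjusted p = 0.296), and run 5 gave 1.59. All 4 knockout arrays were above 0, at 0.74, 1.02, 1.26 and 1.51, with a ratio of 1.13 ± 0.29 (limma adjusted p = 0.00236). Knockout minus 15 day was 0.02 ± 0.41 (95% interval -0.84 to 0.88), and -0.44 without 15 day replicate 2.

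Of the other IGF system genes fixed for description, 5 of 19 were tested. In ovary against testis 3 of these 5 rose and 0 fell, in 15 day testis 2 rose and 0 fell, in the knockout 3 rose and 0 fell, and in testis against reference 0 rose and 4 fell. Igf1r, the receptor, was at 1.88 ± 0.26 in ovary against testis, 0.99 ± 0.26 at 15 days and 1.07 ± 0.26 in the knockout, each of which passed (limma adjusted p = 2.86e-06, 0.00381 and 0.00142). Igfbp3, another binding protein, was at 2.57 ± 0.34 in ovary against testis and 2.32 ± 0.29 in the knockout, but at 0.58 ± 0.29 at 15 days (limma adjusted p = 0.113). The knockout and 15 day ratios of Igfbp3 differed by 1.74 ± 0.41 (limma adjusted p = 0.0281), which was not so for Igfbp4. Igf2r, which clears the related factor Igf2, was at 0.69 ± 0.21 and 0.84 ± 0.21 in the 15 day and knockout comparisons, and both passed. Irs1 and Grb10, intracellular adaptors of the receptor, were at -1.47 ± 0.17 and -1.71 ± 0.27 in testis against reference, and both fell.

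Pdgfra went the opposite way to these secreted factors. It was lower in ovary than in testis on all 4 arrays, at -0.18, -1.30, -2.61 and -0.77. The mean was -1.22 ± 0.31 (2.32-fold, limma adjusted p = 0.00225), but the arrays differed widely (SD 1.04). Without replicate 3 it was -0.75 and just missed the threshold (limma adjusted p = 0.0505). Testis stood above the reference on 3 of 4 arrays, at 1.56, -0.13, 2.02 and 1.20, with a mean of 1.16 ± 0.31 (limma adjusted p = 0.00304; 0.71 and not called with the arrays of runs 4 and 5 of the title numbers alone, limma adjusted p = 0.186). Ovary did not differ from the reference beyond the threshold, at -0.52, 0.22, -0.10, -0.47 and -0.56 (-0.29 ± 0.28, 95% interval -0.87 to 0.30). Testis thus stood above both other sources for Pdgfra and below them for Igfbp4.

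The receptor was also lower in both altered testes. At 15 days the arrays agreed closely, at -1.24, -0.94, -1.17 and -0.87 (-1.05 ± 0.31, SD 0.18, limma adjusted p = 0.009). The ratio was -1.09 within run 2 and -1.02 within run 5, and neither run passed by itself (limma adjusted p = 0.108 and 0.1, 2 arrays each). In the knockout the values were -1.68, -1.19, -0.54 and -1.95, giving -1.34 ± 0.31, or 2.53-fold lower (limma adjusted p = 0.00103). No array of either comparison reached 0.

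Of the 6 other genes listed for the PDGF system 3 were tested. The ligand gene Pdgfa was lower in ovary than in testis (-0.71 ± 0.18), lower at 15 days (-0.65 ± 0.21) and lower in the knockout (-0.60 ± 0.21), and each passed (limma adjusted p = 0.00224, 0.016 and 0.0184). Pdgfrb, the receptor of pericytes and smooth muscle, was higher in ovary by 0.92 ± 0.19 (limma adjusted p = 3.52e-04), the opposite direction to Pdgfra. At -0.42 ± 0.22 and -0.07 ± 0.22 it did not pass in 15 day or knockout testis. In testis against reference, where Pdgfra was higher, all 3 fell: Pdgfa was at -0.44 ± 0.18, Pdgfrb at -0.87 ± 0.19 and Pdgfc, a further ligand, at -0.94 ± 0.19 (limma adjusted p = 0.0434, 5.48e-04 and 2.45e-04).

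Serpinf1 was the most variable of the 7 genes against the reference. Testis read -3.19, -3.40, -1.09 and -0.16 there (SD 1.59), with a mean of -1.96 ± 0.43 (limma adjusted p = 6.40e-04). Ovary read -0.47, -0.03, -1.47, -2.27 and -1.49, with a mean of -1.15 ± 0.39 (limma adjusted p = 0.039). Both comparisons divided by run of the title numbers: in run 3 testis averaged -0.62 and ovary -0.25 (2 arrays each), whereas in runs 4 and 5 testis was at -3.19 and -3.40 (1 array each) and ovary at -1.47 (1 array) and -1.88 (2 arrays). With the reference arrays of run 3 alone neither comparison passed (-0.63 and -0.25, limma adjusted p = 0.226 and 0.836), and with those of runs 4 and 5 alone both did, at -3.29 and -1.74 (limma adjusted p = 4.33e-06 and 9.82e-04). The ovary value was -1.85 with all arrays scaled to 1 spread, and its call was lost without replicates 3, 4 or 5, at -1.06, -0.86 and -1.06. The source of this division was not tested.

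The direct arrays gave Serpinf1 as 0.05, 1.51, 2.10 and 1.05 in ovary against testis. The array of run 3 was the lowest here, whereas run 3 held the highest values in both reference comparisons. The mean of 1.18 ± 0.43 passed (limma adjusted p = 0.0256). It failed with all arrays scaled to 1 spread (0.96) and without replicates 2, 3 or 4 (1.07, 0.87 and 1.22), so the excess in ovary rests on few arrays. In the knockout the 3 arrays with a value were all above 0, at 1.16, 1.96 and 1.33 (1.48 ± 0.50, 2.80-fold, limma adjusted p = 0.0162). That call was lost without replicate 2 (1.25, limma adjusted p = 0.106) and with arrays weighted by quality (limma adjusted p = 0.0539). At 15 days the 3 values of 0.33, 0.51 and 1.12 averaged 0.65 ± 0.50 and did not pass (95% interval -0.40 to 1.70, limma adjusted p = 0.292), although they did in a fit on the 15 day arrays alone (0.65, limma adjusted p = 0.0317) and with arrays weighted by quality (0.79, limma adjusted p = 0.00994).

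**Figure D2:**
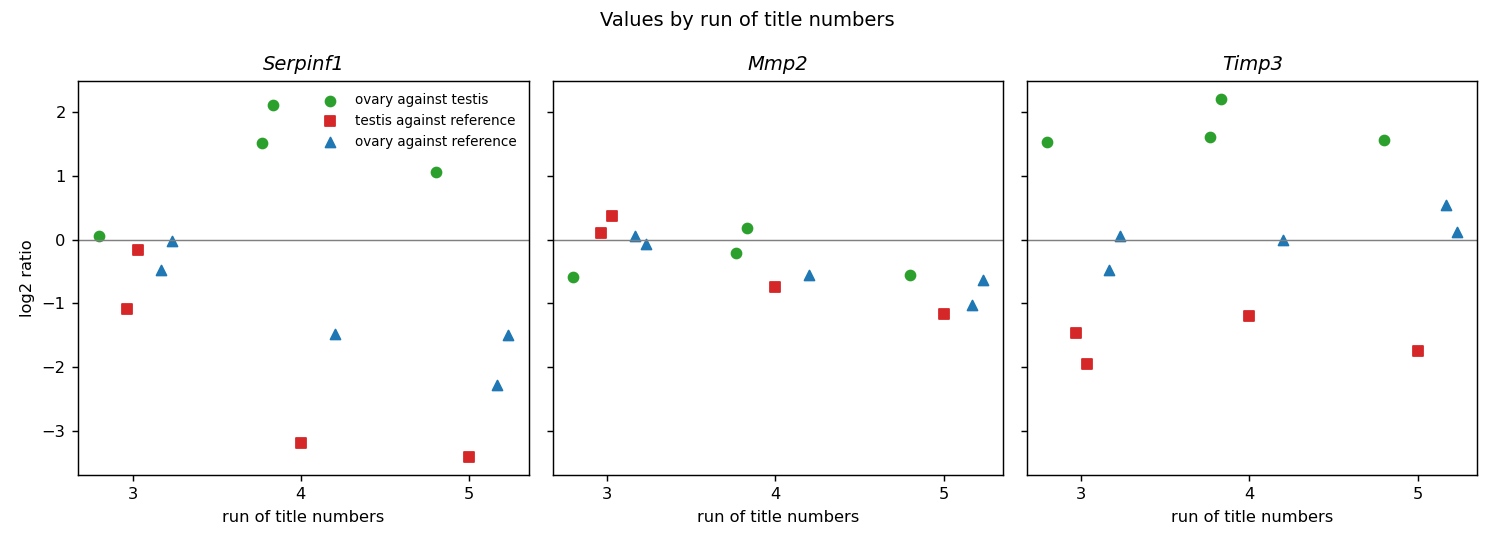
Log2 ratios (y axis) of Serpinf1, Mmp2 and Timp3 on the arrays of 3 comparisons, by run of the numbers in the array titles (x axis), with 1 point per array. Serpinf1 and Mmp2 lie higher in run 3 than in runs 4 and 5 in both reference comparisons, whereas Timp3 shows no such step in testis against reference (-1.71 in run 3, -1.20 in run 4 and -1.74 in run 5).

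Of 18 other serpins and genes of the plasminogen system 5 were tested, and in the knockout 0 of them rose and 3 fell. Serpinb6a and Serpinb9, intracellular protease inhibitors, were at -0.72 ± 0.17 and -1.06 ± 0.40 in the knockout and at -1.16 ± 0.17 and -1.44 ± 0.40 at 15 days, and all 4 values passed. A2m, a broad protease inhibitor of plasma, fell in the knockout (-0.76 ± 0.32, limma adjusted p = 0.0475) and rose in ovary against testis (1.32 ± 0.32). Serpinh1, the chaperone of collagen, rose in ovary by 0.93 ± 0.25 (limma adjusted p = 0.00327) and was at 0.10 ± 0.22 in the knockout. None of these 4 shared the higher ratio of Serpinf1 in the knockout.

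The protease gene Mmp2 was called lower in both altered testes and was not called between the organs. In the knockout it read -1.73, -1.86, -0.51 and -0.96, all below 0, for a ratio of -1.27 ± 0.24 (2.40-fold lower, limma adjusted p = 1.58e-04). The lower pair of values came from the arrays with the knockout in channel 2. At 15 days the arrays gave -0.96, -0.63, -1.21 and -1.03, for -0.96 ± 0.24 (1.94-fold lower, limma adjusted p = 0.00302). Within run 2 that ratio was -0.79 and did not pass (limma adjusted p = 0.131), and within run 5 it was -1.12 and did (limma adjusted p = 0.021).

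Between ovary and testis Mmp2 was at -0.59, -0.21, 0.18 and -0.55, a ratio of -0.29 ± 0.24 that did not pass (95% interval -0.80 to 0.22, limma adjusted p = 0.313). The interval leaves room for a modest deficit in ovary but not for an excess of the size seen for Igf1. Against the reference neither organ passed, at -0.36 ± 0.24 in testis and -0.45 ± 0.22 in ovary. Here too the runs differed. Testis averaged 0.23 in run 3 and was at -0.75 and -1.17 in runs 4 and 5, and ovary averaged -0.01 in run 3, -0.56 in run 4 and -0.83 in run 5. With the reference arrays of runs 4 and 5 alone both organs were called lower (-0.96 and -0.74, limma adjusted p = 0.0108 and 0.0441), and ovary was also with all arrays scaled to 1 spread (-0.71, limma adjusted p = 0.008) or weighted by quality (-0.50, limma adjusted p = 0.016).

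Timp2, the inhibitor that also assists Mmp2 activation, rose where Mmp2 fell in the knockout. Its 4 arrays read 1, 1.97, 0.91 and 0.28, for a ratio of 1.04 ± 0.24 (2.06-fold, limma adjusted p = 0.00105). At 15 days all 4 arrays were again above 0 but small, at 0.32, 0.57, 0.20 and 0.41. That ratio of 0.38 ± 0.24 did not pass (95% interval -0.13 to 0.88, limma adjusted p = 0.211), except in a fit on those arrays alone (0.37, limma adjusted p = 0.0247). Knockout minus 15 day was 0.66 ± 0.34 (limma adjusted p = 0.378). Ovary against testis read 0.09, 0.43 and -0.20 on the direct arrays, with no value for replicate 1, and did not pass (0.11 ± 0.28, 95% interval -0.48 to 0.69). Both organs stood below the reference: testis at -0.68, -1.30, -0.98 and -2.27 (-1.31 ± 0.24, limma adjusted p = 9.55e-05) and ovary at -1.74, -1.11, -0.63, -1.19 and -1.26 (-1.19 ± 0.22, limma adjusted p = 4.03e-04; -2.09 with all arrays scaled to 1 spread).

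Timp3, which is unusual among these inhibitors in binding to the matrix, was on the same side of 0 on every array in 4 of the 5 comparisons. Timp2 was so in 4 as well, and Igf1 and Serpinf1 in all 5, on the arrays with a value. In ovary against testis Timp3 read 1.52, 1.60, 2.20 and 1.56 (1.72 ± 0.17, 3.30-fold, limma adjusted p = 3.11e-08), with replicate 3 above the other arrays. The 15 day arrays gave 1.25, 1.07, 1.20 and 0.92 (1.11 ± 0.17, limma adjusted p = 1.91e-05), at 1.16 within run 2 and 1.06 within run 5. The knockout arrays gave 1.96, 1.44, 1.49 and 1.32 (1.55 ± 0.17, 2.93-fold, limma adjusted p = 1.57e-07). All 12 of these arrays were above 0, and knockout minus 15 day, 0.44 ± 0.24, did not pass (limma adjusted p = 0.41). Testis was below the reference at -1.20, -1.74, -1.46 and -1.95 (-1.59 ± 0.17, limma adjusted p = 7.06e-08), and ovary lay around it at -0.47, 0.06, -0.01, 0.54 and 0.12 (0.05 ± 0.15, 95% interval -0.27 to 0.36). Like Igfbp4, Timp3 was called low in testis and not called in ovary against the reference.

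The 2 probes of Timp3 were called in the same direction in 4 comparisons but differed in size. In the knockout probe 1 was at 2.35, 2.06, 1.81 and 1.90 and probe 2 at 1.58, 0.82, 1.16 and 0.74, so that probe 1 stood higher on each array. Their fitted ratios over the 7561 probes were 2.03 ± 0.19 and 1.08 ± 0.20. In testis against reference probe 1 was again the higher on each array, with ratios of -1.13 ± 0.19 and -2.04 ± 0.20. Between ovary and testis they were nearly equal, at 1.71 ± 0.19 (4 arrays) and 1.81 ± 0.24 (3 arrays). At 15 days they were at 1.20 ± 0.19 and 1.02 ± 0.20. In ovary against reference, where neither passed, they lay on opposite sides of 0 (0.36 ± 0.17 and -0.27 ± 0.18). Knockout minus 15 day was 0.83 ± 0.26 for probe 1 and 0.06 ± 0.29 for probe 2, and neither passed over all probes (limma adjusted p = 0.113 and 0.972).

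**Figure D3:**
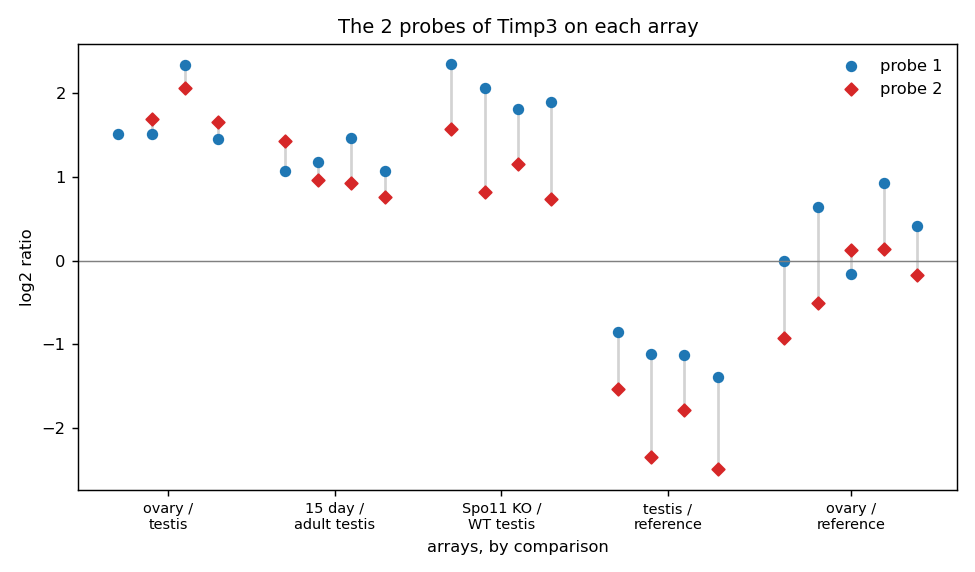
Log2 ratio (y axis) of the 2 probes of Timp3 on each array, grouped by comparison (x axis), with a line joining the probes of an array. Probe 1 lies above probe 2 on all 4 knockout arrays and all 4 testis against reference arrays, and the probes are nearly equal in ovary against testis.

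Of 31 other metalloproteases and inhibitors on the list only 4 were tested. Mmp9, the other gelatinase, was at 1.40 ± 0.23 in the knockout and 0.67 ± 0.27 at 15 days (limma adjusted p = 3.52e-05 and 0.0469), so it rose where Mmp2 fell. Adam8, a membrane-bound metalloprotease, fell by 1.60 ± 0.25 at 15 days and by 0.87 ± 0.25 in the knockout. Bsg, known as an inducer of metalloproteases, was at -1.05 ± 0.28 in ovary against testis, -1.01 ± 0.28 at 15 days and -0.80 ± 0.28 in the knockout, and each passed. Adam17, which sheds growth factors and receptors and is inhibited by Timp3, did not pass in any of these 3 comparisons (0.51 ± 0.30, -0.03 ± 0.30 and -0.30 ± 0.30).

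Among 38 further growth factors and receptors of stroma 6 were tested. In the knockout 4 rose and 2 fell, and at 15 days 0 rose and 1 fell. Gas6, a ligand of the TAM receptors, was at 1.57 ± 0.33 in the knockout and 2.13 ± 0.38 in ovary against testis, and Ptn, a heparin-binding growth factor, was at 1.53 ± 0.26 in the knockout. Ltbp1, which holds latent TGF-beta in the matrix, was at 1.13 ± 0.23 in the knockout and 1.21 ± 0.23 in ovary. Cxcl12 was at 0.92 ± 0.34 in the knockout. Bmpr1a, a receptor of bone morphogenetic proteins, fell in each of these comparisons, by 0.71 ± 0.19 in the knockout, 0.48 ± 0.19 at 15 days and 1.17 ± 0.22 in ovary against testis, in the same direction as Pdgfra. Fgf10 also fell in the knockout (-0.9 ± 0.26) but was not called at 15 days (0.11 ± 0.23) or in ovary against testis (0.12 ± 0.26).

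The ovary to testis ratio was also measured through the reference, as ovary against reference minus testis against reference, on 9 arrays that included none of the direct ones. By that route 3 of the 7 genes were higher in ovary and 1 lower, against 17.6% and 28.7% of all genes. Igf1 was at 2.39 ± 0.23 (3.80 with all arrays scaled to 1 spread), Igfbp4 at 2.71 ± 0.39 and Timp3 at 1.63 ± 0.23, each called as on the direct arrays. Pdgfra was at -1.45 ± 0.42 and was also called (limma adjusted p = 0.0078), but not with the reference arrays of run 3 alone (-1.76, limma adjusted p = 0.0504) or of runs 4 and 5 alone (-1.09, limma adjusted p = 0.144). Serpinf1 was at 0.81 ± 0.58 and did not pass (limma adjusted p = 0.262), and it ranged from 0.38 in run 3 to 1.55 in runs 4 and 5, the latter past the threshold (limma adjusted p = 0.0197). Without testis against reference replicate 4 it passed as well (1.41, limma adjusted p = 0.0435). Mmp2 and Timp2 were at -0.09 ± 0.33 and 0.12 ± 0.33. Direct minus indirect ratios ran from -0.31 ± 0.29 for Igf1 to 0.36 ± 0.73 for Serpinf1. No gene of the 4465 passed for that difference (0%, limma), with 74 (1.66%) at an unadjusted p under 0.05. That share is below what a threshold of 0.05 would give without any difference, so the lack of calls does not show that the 2 routes agree. Scaling the arrays to 1 spread brought 58 genes past the threshold, among them Igf1 at -2.05 (limma adjusted p = 0.00148), and Timp2 through the reference turned to -0.97 and was called (limma adjusted p = 0.0486).

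**Figure D4:**
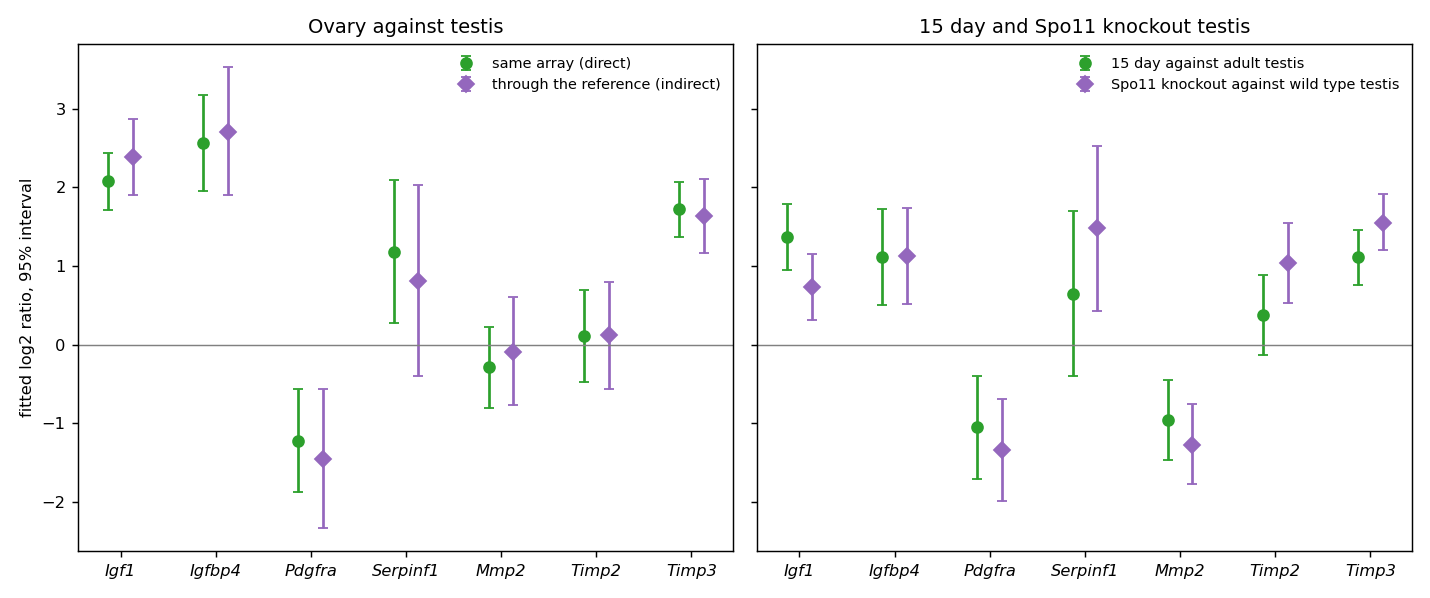
Fitted log2 ratios (y axis) with 95% intervals for the 7 genes (x axis). The left panel sets the direct ovary against testis ratio beside that through the reference, and the right panel sets 15 day against adult testis beside Spo11 knockout against wild type testis. In both panels Igf1, Igfbp4 and Timp3 lie above 0 and Pdgfra below it.

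Testis at 15 days holds germ cells up to meiosis, and testis without Spo11, the enzyme that makes the breaks of meiotic recombination, loses germ cells during meiosis. Both comparisons called Igf1, Igfbp4 and Timp3 higher and Pdgfra and Mmp2 lower. No member differed between them by the test of knockout minus 15 day (0 of 7 by limma), where 2.04% of all genes were called higher and 0.358% lower. At an unadjusted p under 0.05 (limma) there was 1 of the 7, Igf1, against 14.8% of all genes. The knockout arrays all lay in run 1 of the title numbers and no other array did. Knockout and wild type RNA shared each of these arrays, so genotype was compared within the run. In knockout minus 15 day, however, a difference between runs cannot be told apart from one between the comparisons.

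Markers of other cells moved in the same comparisons. Of 5 tested spermatid genes 4 fell in 15 day testis (median -2.04, array medians from -2.95 to -0.96) and 4 in the knockout (median -3.43, from -4.34 to -2.81). Of 7 spermatocyte genes 3 fell and 1 rose at 15 days (median -0.29), and 4 fell and 0 rose in the knockout (median -0.66). Sertoli cell genes rose in 5 of 8 and 8 of 8 cases (array medians from 0.62 to 1.02 and from 1.43 to 2.03). Fibroblast and matrix genes rose in 6 of 8 cases in each (medians 1.78 and 1.51, array medians from 1.59 to 1.93 and from 1.19 to 1.82), and 0 and 1 fell. The 1 that fell in the knockout was Lum (-1.16 ± 0.36), which was not called at 15 days (-0.7 ± 0.42) or in ovary against testis (-0.66 ± 0.36). Lum was called higher in testis against reference (1.39 ± 0.36). Of 4 peritubular and smooth muscle genes 3 and 4 rose. Of 4 macrophage genes 2 and 4 rose. Steroidogenic genes parted the comparisons: of 4, 2 fell and 0 rose at 15 days (median -1.18) and 4 rose in the knockout (median 2.06). In ovary against testis, fibroblast genes rose in 7 of 8 cases (median 2.34), smooth muscle genes in 4 of 4 (median 1.90), steroidogenic genes in 3 of 4 (median 2.42), macrophage genes in 3 of 4 (median 1.15) and Sertoli cell genes in 4 of 8, with 2 lower (median 0.51). Spermatocyte genes fell there in 6 of 7 cases (median -3.39) and spermatid genes in 4 of 5 (median -4.42). Of the Sertoli cell genes, Inha, Wt1, Ctsl and Gata4 were the 4 that rose in ovary, and Rhox5 and Cst12 the 2 that fell. Only 1 of 11 endothelial markers was tested, Cd34, at -0.79 ± 0.23 in ovary against testis. Only 1 of 7 granulosa markers was tested, Amhr2, at -1.1 ± 0.28 there. Igf1, Igfbp4 and Timp3 rose in both altered testes, as most fibroblast, Sertoli cell and smooth muscle genes did. Pdgfra and Mmp2, which fibroblasts also express, fell in both, as most spermatid genes did. In ovary against testis and testis against reference the spermatid medians were -4.42 and 5.42. Pdgfra was called in the same directions there (-1.22 and 1.16), and Mmp2 was not called (-0.29 and -0.36). Serpinf1 and Timp2 rose in the knockout and did not pass at 15 days. The part of cell makeup in the members' ratios was not tested.

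Array by array, some members went together and others did not. Igfbp4 and Timp3 rose and fell together over the 21 arrays (Pearson r = 0.91, Spearman rho = 0.848), and Serpinf1 followed Igfbp4 (r = 0.821, 19 arrays) and Timp3 (r = 0.762, 19 arrays). Timp2 followed Timp3 (r = 0.798, 20 arrays) more closely than it followed Igf1 (r = 0.16, 18 arrays). Pdgfra ran against Timp3 (r = -0.832) and Igfbp4 (r = -0.769). Mmp2 was nearly unrelated to Igfbp4 (r = -0.102) and Serpinf1 (r = -0.0141). It ran against Timp2 (r = -0.592, 20 arrays), though less so by rank (rho = -0.387). These values describe arrays that share sources of RNA and comparisons, and they were not split into parts within and between comparisons.

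**Figure D5:**
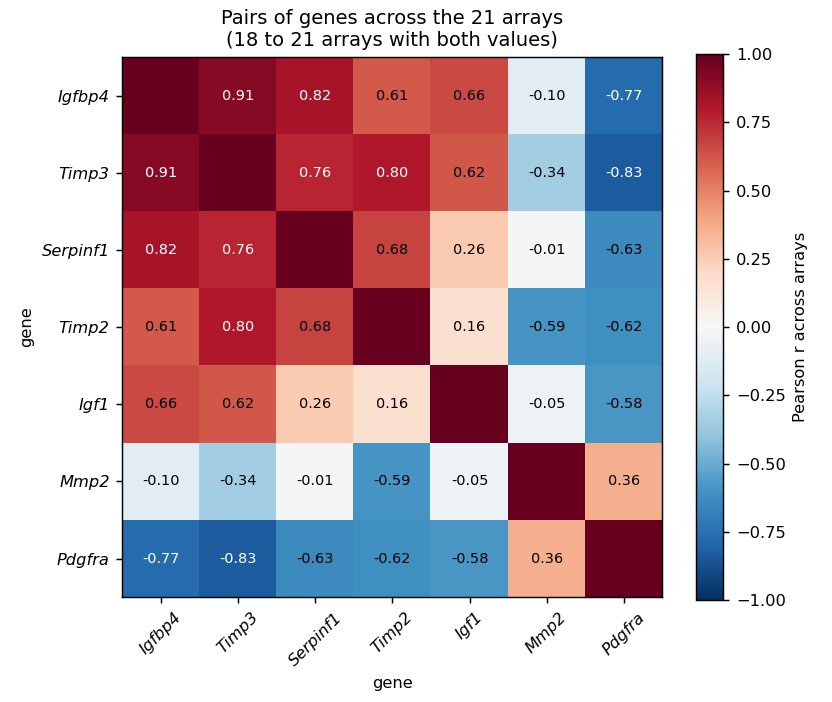
Pearson correlation of log2 ratios across arrays for each pair of the 7 genes (18 to 21 arrays with both values; colour and number give r). Igfbp4, Timp3, Serpinf1 and Timp2 form a positive block, and Pdgfra is negative with each of them.

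The upstream sequences of Igfbp4 and Timp3, the pair whose ratios moved together most closely, and of Pdgfra, which moved against them, are printed for comparison. They are the 250 bases before the annotated start of each gene, from RefSeq on GRCm38.p6, all on the plus strand: chr11:99040994-99041243 for Igfbp4, chr10:86300162-86300411 for Timp3 and chr5:75152001-75152250 for Pdgfra. RefSeq promoter entries were matched for 6 of the 7 genes, all but Mmp2. Capitals mark matches on either strand to GGGCGG (the GC box), TATAAA (the TATA box) or CCAAT (the CCAAT box).
Igfbp4: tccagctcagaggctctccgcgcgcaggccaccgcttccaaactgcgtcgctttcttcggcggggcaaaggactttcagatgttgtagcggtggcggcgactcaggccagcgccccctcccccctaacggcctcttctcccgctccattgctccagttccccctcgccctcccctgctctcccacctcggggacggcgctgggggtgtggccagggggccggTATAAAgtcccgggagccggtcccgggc
Timp3: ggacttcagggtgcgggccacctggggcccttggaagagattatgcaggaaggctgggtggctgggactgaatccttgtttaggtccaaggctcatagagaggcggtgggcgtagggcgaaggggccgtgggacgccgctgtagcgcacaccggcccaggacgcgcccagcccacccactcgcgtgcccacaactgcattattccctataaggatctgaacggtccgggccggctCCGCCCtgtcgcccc
Pdgfra: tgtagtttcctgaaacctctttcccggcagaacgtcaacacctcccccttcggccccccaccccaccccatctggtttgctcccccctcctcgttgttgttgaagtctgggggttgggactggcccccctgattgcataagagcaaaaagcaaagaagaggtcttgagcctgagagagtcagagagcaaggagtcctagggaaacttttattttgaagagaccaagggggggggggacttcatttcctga

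The window of Igfbp4 held 1 TATA box, whose first base lay 28 bases before the start, that of Timp3 held 1 GC box, and that of Pdgfra held none of these motifs. Among 32851 RefSeq windows of the same length, 12.4% held a TATA box, 32.7% a GC box and 33.8% a CCAAT box. The windows of Igfbp4 and Timp3 were 69.2% and 65.6% G and C, and that of Pdgfra 54.4%. The pair that moved together thus shared none of the 3 motifs. A match describes the letters and does not show that a factor binds there.

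The genes whose array values lay closest to each member were found among those with values on at least 18 arrays in common. For Igfbp4 they were Dstn, which severs actin filaments (r = 0.987, 21 arrays), Car1 (r = 0.977, 18 arrays) and Lrp1, an endocytic receptor (r = 0.977, 21 arrays). Timp3 was closest to the tropomyosin Tpm1 (r = 0.982, 21 arrays), Sat1 (r = 0.968, 18 arrays) and the ribosomal gene Rps4x (r = 0.964, 21 arrays). Igf1 was closest to Foxo1, a transcription factor that IGF signalling restrains (r = 0.911, 19 arrays), then Aif1l (r = 0.893) and Mgp (r = 0.891), and Serpinf1 to Vmp1 (r = 0.943), Naxe (r = 0.937) and the matrix gene Fbln2 (r = 0.935). Pdgfra was closest to Erich3 (r = 0.912, 18 arrays), 4921507G05Rik (r = 0.91, 20 arrays) and Rhot1 (r = 0.909, 18 arrays). Timp2 was closest to Ankrd11 (r = 0.927), Cdt1 (r = 0.921) and Egln1 (r = 0.901). Mmp2 had no such close neighbour: its highest value was 0.719, with Ern1, over 19 arrays. Each search compared between 3665 and 4301 genes, and these values carry no test.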

How the data were processed

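Per the labels, 2 sources of mouse RNA shared each of 21 arrays. The deposited numbers were taken to be log2 ratios, a unit inferred from their signs and range. The authors' background correction, dyes and normalization are not given in the sources used here. An array held between 6452 and 14012 values. Without intensities no dim probe was left out, and precision is set by how many arrays there are.

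Of 9817 annotated probes (annotation of the deposited platform), 9604 had 1 symbol and 9496 of those matched RefSeq genes of GRCm38.p6 by gene identifier. Each array was centred on its median. Probes with 3 or more values in every one of the 5 groups were averaged per gene and array. One limma model (version 3.58.1, R 4.3.3) with a coefficient per group was fitted to all 21 arrays; missing values were left missing. It was tested on simulated data. Promoter sequences came from RefSeq.

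The members and gene lists were chosen with earlier results of these data known, and the comparisons within runs of title numbers on the reference arrays after the values were seen. Named genes were all members, up to 4 called genes of a list per comparison with the largest ratios and the 3 genes closest to each member; values of the same genes that were not called were added as contrasts after they were seen. Alternatives were other centring, scaling, filters, probe choice, weights, terms for channel order and run, and leaving out each array.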

Additional observations from a re-analysis of the deposited data

Results flagged for a closer look

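Within groups of 4 or 5 arrays, an array was singled out when its gap to the nearest other array took up more of the group's range than Dixon's 95% limit allows, which chance exceeds in about 1 in 20 groups. Of 30 groups examined for the 7 genes, 3 did so. Igfbp4 stood at 1.73 in replicate 1 of ovary against testis, the array with the fewest values (6452), while the other 3 arrays lay between 2.79 and 2.88. Igfbp4 stood at -0.27 in replicate 2 of 15 day against adult testis, while the other 3 lay between 1.52 and 1.67. Timp3 stood at 2.20 in replicate 3 of ovary against testis, while the others lay between 1.52 and 1.60. Igfbp4 and Timp3 kept their calls without these arrays.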

How the results depend on the processing

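Over the 5 comparisons, 548 of 580 alternative values of the 7 genes kept their direction and their side of the threshold, 19 lost the call, 8 gained it and 5 changed sign. The alternatives moved no called value of these comparisons to the other side of 0. Each gene has 3 to 5 values per group, signal over background is not known, and the causes of the changes were not tested.

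A limit to probes on all 21 arrays kept only 4 of the 7 members and 2000 of the 4465 genes. The count of members called was then 3, 4, 3 and 0 in ovary against testis, knockout, testis against reference and ovary against reference. Of the 2000 genes, 1286 were called in ovary against testis, 1051 at 15 days and 1200 in the knockout. Against the reference 1319 were called in testis and 533 in ovary. The main setting called 2633, 2057, 2553, 2742 and 1024 of 4465 genes, in that order. Without single arrays of ovary against testis, 3 to 5 members were called. The 15 day arrays of run 2 alone called 2 members and 940 genes, where all 4 arrays called 2057. With arrays weighted by quality 3318 genes were called at 15 days and 1833 in ovary against reference (1024 in the main setting), with arrays scaled to 1 spread 2183 in the latter, and with run 3 alone 214; through the reference run 3 alone called 971. Scaling called 1 member (Igf1, -2.05) and 58 genes for direct minus indirect, and 48 genes for knockout minus 15 day (107 in the main setting; 58 to 105 without single arrays).

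Values that changed sign were all uncalled in the main setting. Timp2 in ovary against testis was -0.17 with run as a fixed term and -0.05 to 0.26 without single arrays. Mmp2 in testis against reference was 0.23 in run 3. Timp3 in ovary against reference was -0.20 in run 3 and -0.07 to 0.18 without single arrays. Through the reference, scaling gave Serpinf1 -0.41 and Timp2 -0.97 (limma adjusted p = 0.0486), runs 4 and 5 gave Mmp2 0.22 and Timp2 -0.04, and without single arrays Mmp2 ran from -0.35 to 0.16 and Timp2 from -0.20 to 0.33. Direct minus indirect with scaling was 0.23 for Igfbp4, 0.25 for Mmp2 and 1.06 for Timp2; without single arrays it ran from -0.32 to 0.20 for Igfbp4, -0.11 to 0.70 for Pdgfra, -0.24 to 0.84 for Serpinf1, -0.45 to 0.06 for Mmp2, -0.22 to 0.31 for Timp2 and -0.07 to 0.21 for Timp3. Knockout minus 15 day for Igfbp4 was -0.17 with scaling and -0.44 to 0.20 without single arrays. Replicate numbers were not in the labels and paired no arrays.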

Other observations

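Serpinf1 and Mmp2, which differ in role, divided by run of title numbers in both comparisons that used the reference RNA. In testis against reference the 2 arrays of run 3 were the highest of 4 for each gene (-1.09 and -0.16 for Serpinf1, 0.10 and 0.37 for Mmp2). In ovary against reference the 2 arrays of run 3 were the highest of 5 for each gene (-0.47 and -0.03, and 0.05 and -0.07). Igf1 divided the other way in ovary against reference, where its 2 arrays of run 3 were the lowest of 5 (1.77 and 1.68, against 2.02 to 2.31). Timp2 and Timp3 showed no division of run 3 from the other runs in these comparisons. How many other genes divide by run 3 was not counted, and with 2 of 4 or 5 arrays such a division can often arise by chance. Over all tested genes the consensus correlation of arrays within a run was -0.0354 (limma).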
